A study of Mus musculus with 4 samples.

Results

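This report describes 392 stretches of CpG-rich DNA that were methylated at an intermediate level in every library of a study of hippocampal microglia, the macrophages that live in brain tissue. Each stretch is an autosomal 1-kb tile with at least 20 listed CpGs over the libraries, at least 20 reads in every library and a methylation level of 35 to 65% in each of the 4 libraries. The level of a tile is the percent of its reads that were methylated, and a read counts at each CpG it covers. The members are 1.21% of the 32454 tiles that met the CpG and read minimum at any level, called CpG-rich covered tiles here, and all autosomal tiles with a listed CpG numbered 2303509. The members were chosen by their levels in all 4 libraries, so these levels and their differences between groups are given as a description with no test. The tiles just inside the bounds lay at 35% in a library (Gm32986 and Phactr1) and at 65% (Gm32776 and Vsx1), and those just outside lay at 34.98% and 34.88%, and at 65.04% and 65.08%.

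The mice were Tmem119-tdTomato+/- and 3 weeks old postpartum, and the DNA of their hippocampal microglia went through whole-genome bisulfite sequencing, in which unmethylated cytosine reads as T. The FGR group, whose growth was restricted in the womb, had 2 libraries and the control group 2, all of that genotype. The sources used here do not say how growth was restricted, whether animals were pooled or which animals gave which library, so the spread between libraries may be technical. The tables listed 6673944 and 10690176 autosomal CpGs in FGR 1 and FGR 2, and 7916426 and 8375671 in control 1 and control 2. Autosomal levels were 74.8% and 75.7% in FGR and 76.1% and 76.5% in control. Among markers of microglia, the least methylated tile lay at 0.826% for P2ry12 and 2.80% for Cx3cr1, but at 52.6% for Tmem119 and 70.3% for Aif1. The neuronal gene Snap25 also had a tile at 3.70%, so low tiles alone did not set microglial genes apart.

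In genomic imprinting 1 parental copy of a control region is methylated and the other is not, so the bulk DNA of any tissue shows an intermediate level that is even across neighbouring CpGs. The maternal copy carries the mark at the control regions of Mest, Mcts2 and Peg13, and the paternal copy at that of H19. An intermediate level also arises where a methylated and an unmethylated stretch meet, or where cells or molecules differ, and then neighbouring CpGs can have different levels. The protein ZFP57 binds the methylated hexamer TGCCGC and keeps imprints through early development in the mouse.

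Promoter windows of 4 genes are shown because they hold the ZFP57 hexamer, which 26 of the 31 windows with a start in a member lack. The letters are from RefSeq (GRCm38.p6) and run from 250 bases before a gene start to 50 after it, with the ZFP57 hexamer on either strand in capitals. Mcts2 (chr2:152686898-152687197, plus strand) and Mest (chr6:30737800-30738099, plus strand) are imprinted and their windows lie partly in a member, since no window of an imprinted gene lay wholly inside 1. Ap1m2 (chr9:21312284-21312583, minus strand), a clathrin adaptor subunit, and Nt5c2 (chr19:46969519-46969818, minus strand), a nucleotidase, are not in the imprinted lists, have windows wholly inside a member and were chosen after their values were seen. The capitals of Mcts2 and Mest lie before the member tile begins, and those of Ap1m2 and Nt5c2 lie inside the member.
Mcts2: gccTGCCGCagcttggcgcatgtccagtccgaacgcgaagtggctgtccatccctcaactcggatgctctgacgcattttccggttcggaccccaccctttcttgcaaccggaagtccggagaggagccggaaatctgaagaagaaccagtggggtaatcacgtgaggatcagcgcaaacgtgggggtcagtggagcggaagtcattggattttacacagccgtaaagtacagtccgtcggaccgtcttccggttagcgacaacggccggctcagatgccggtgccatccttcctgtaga
Mest: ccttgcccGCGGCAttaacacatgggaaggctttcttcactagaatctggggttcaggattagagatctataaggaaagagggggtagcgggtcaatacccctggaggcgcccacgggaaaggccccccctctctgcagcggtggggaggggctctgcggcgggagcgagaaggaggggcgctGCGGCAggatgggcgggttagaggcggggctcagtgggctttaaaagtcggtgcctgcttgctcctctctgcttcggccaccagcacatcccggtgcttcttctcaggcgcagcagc
Ap1m2: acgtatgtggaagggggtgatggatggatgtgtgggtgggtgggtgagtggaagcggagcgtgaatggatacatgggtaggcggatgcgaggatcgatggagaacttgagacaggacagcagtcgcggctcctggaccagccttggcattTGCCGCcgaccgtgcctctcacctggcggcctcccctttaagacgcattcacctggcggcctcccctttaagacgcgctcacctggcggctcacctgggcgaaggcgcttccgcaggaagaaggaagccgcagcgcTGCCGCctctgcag
Nt5c2: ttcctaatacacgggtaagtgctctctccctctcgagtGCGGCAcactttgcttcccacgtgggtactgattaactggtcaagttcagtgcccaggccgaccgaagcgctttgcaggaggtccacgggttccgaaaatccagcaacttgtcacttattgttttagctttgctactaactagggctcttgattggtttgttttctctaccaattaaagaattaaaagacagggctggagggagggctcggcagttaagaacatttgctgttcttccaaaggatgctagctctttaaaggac
The Mcts2 window had levels of 72.2% and 49.4% in FGR 1 and FGR 2, against 49.1% and 63.4% in control 1 and control 2. That of Ap1m2 had 37.8% and 62.9% in FGR, against 55.9% and 45.6% in control. In both windows the groups overlapped. Only 3 CpGs of the Mest window were listed. The hexamer stood in 21 of 96 windows of imprinted list genes (21.9%), in 5 of 31 windows whose start lies in a member (16.1%) and in 11.6% of all 31396 autosomal windows. The 5 count Mest at 2 overlapping windows, and of the 28 windows of genes outside the imprinted lists 2 held it (7.14%). These matches are letters in a window and were not tested as sites.

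Of the 392 members, 4 lay in or within 5 kb of a gene of the imprinted lists and 388 did not, so the name "imprint-like" holds for few of them by position. By gene, 6 of 48 imprinted genes with a CpG-rich covered tile had a member (12.5%), beside 401 of 15633 of all such genes (2.57%). The 6 were Mcts2, H13, Peg13, Trappc9, Mest and H19, and they share the 4 tiles, so the gene share counts some tiles more than once. By tile, 4 of 104 CpG-rich covered tiles near imprinted genes were members, beside 392 of 32454 in all (1.21%). No gene of the germline, neuron, astrocyte, oligodendrocyte, endothelium and pericyte, or lymphocyte lists had a member. These lists had 28, 8, 6, 7, 6 and 5 genes with a CpG-rich covered tile, too few to read 0 as a result beside the 2.57% of all genes. Of the microglia list, 1 of 4 did, namely Sall1, a transcription factor of microglial identity.

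The tile at Mcts2 and H13 (chr2:152687001-152688000, 39 CpGs, inside the H13 gene and holding the start of the retrogene Mcts2) had 63.9% and 60.9% in FGR 1 and FGR 2, against 55.9% and 58.2% in control 1 and control 2. Both FGR libraries lay above both controls here, with means of 62.4 ± 2.15% and 57.0 ± 1.61% (SD, n = 2 each). These levels rest on different CpGs, 30 and 17 in FGR and 12 and 19 in control, with 0 listed in all 4 libraries. In the tile to its left FGR had 47.2% and 63.3%, against 53.2% and 81.8% in control, so the groups overlapped there. The tile at Peg13 and Trappc9 (chr15:72810001-72811000, 36 CpGs), where the noncoding RNA Peg13 lies within Trappc9, had 62.2% and 50.4% in FGR, against 52.6% and 59.8% in control, so the groups overlapped. The tile at Mest (chr6:30738001-30739000, 60 CpGs), which encodes a hydrolase-like protein expressed from the paternal copy, had 39.8% and 52.0% in FGR, against 54.5% and 50% in control. The groups overlapped. The control values rest on 33 and 30 reads at only 6 and 5 of its CpGs, against 327 reads at 55 CpGs in FGR 2. The tile 1855 bp from H19 (chr7:142580001-142581000, 30 CpGs), a growth-limiting noncoding RNA, had 59.9% and 51.1% in FGR, against 50% and 49.7% in control. Over the 7 CpGs listed in all 4 libraries it had 61.3% and 60.5% in FGR, against 45.7% and 33.9% in control. Both FGR libraries lay above both controls on either measure, over the whole tile by as little as 51.1% against 50%. How many members separated the groups in this way was not counted, so nothing is read from it here or at Mcts2. Over its 4 such CpGs the Peg13 tile had 60% and 65.2% in FGR, against 65% and 42.9% in control.

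**Figure D1:**
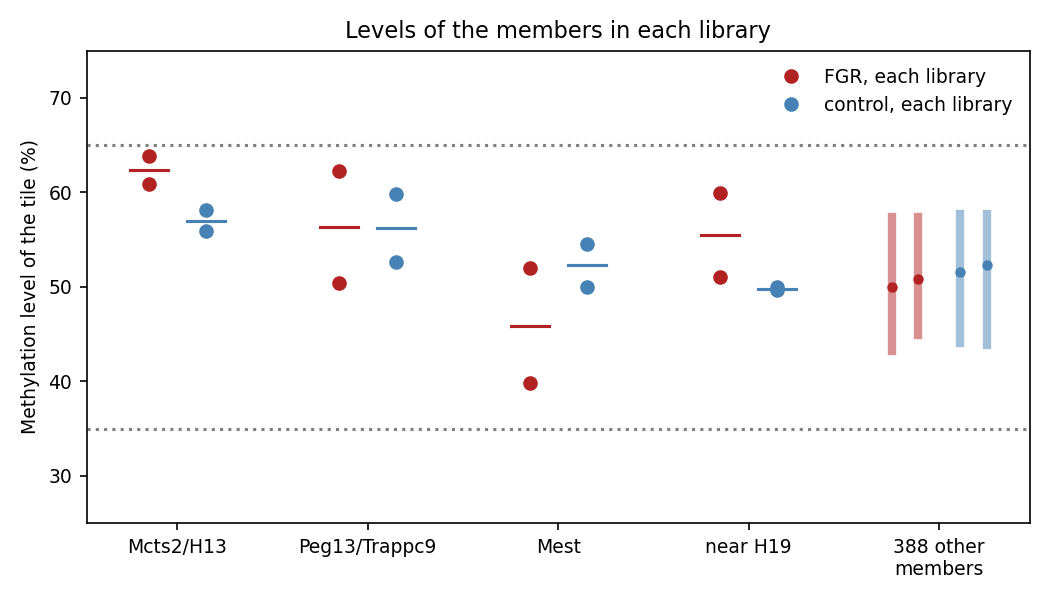
Methylation level (percent) of the 4 members near imprinted genes in each library, with the group mean as a line, and of the 388 other members as median and middle 50% per library. Dotted lines mark the bounds of 35% and 65% that chose the members, and FGR stands left of control.

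The evenness of the CpGs inside a tile was not used by the rule. It was measured by a dispersion ratio, the spread of the CpGs around the tile's level over the spread that binomial sampling gives, with the 4 libraries pooled, so that 1 means no more spread than read sampling. The ratio was 0.523 at Mcts2, 0.664 at Peg13, 0.781 at Mest and 0.869 near H19, and these were the 4 lowest ratios of the 392 members. The other 388 had a median of 4.65, and 1 of them was under 1, at Hoxb3 (0.898), a homeobox gene of body patterning. The ratio grows with reads per CpG, so the other members with 8.38 to 16.8 reads per CpG, the range of the imprinted members, were set beside them. These 252 tiles had a median ratio of 3.88, and the 35 of them with at least 30 CpGs had a median of 3.44 and a lowest of 1.53. Without control 1, control 2, FGR 1 or FGR 2 in turn, 3 of the 4 stayed among the 4 lowest, and the H19 tile reached 1.14. A read covers several CpGs, so CpGs of a tile are not independent and the ratio is a description.

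**Figure D2:**
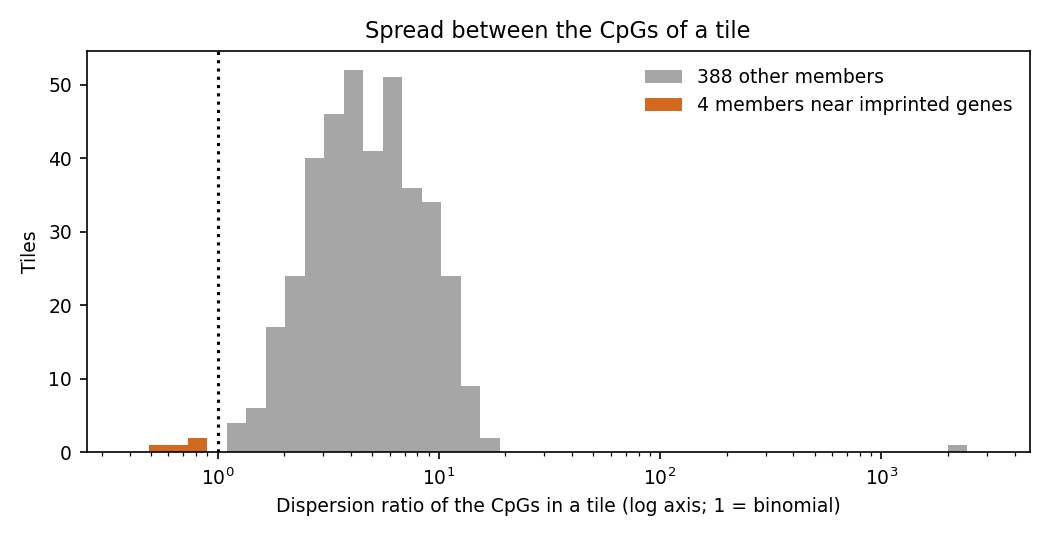
Number of tiles by dispersion ratio (log axis), for the 4 members near imprinted genes and the 388 others. The 4 lie at 0.523 to 0.869, left of the dotted line at 1, and the others have a median of 4.65.

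The median shares of CpGs by level differed between the imprinted and the other members too, though the ranges overlapped. CpGs at 30 to 70% made up 73.3 to 90.0% of the imprinted members' CpGs. In the other members they made up a median of 40.7%, with a highest of 95.2%. Among others at the reads per CpG of the imprinted members the median was 44.1%, and 48.6% with at least 30 CpGs as well. CpGs at 0 or 100% in a library made up a median of 0.682% in the imprinted members and 21.4% in the others, where binomial sampling at the tile's level would give about 4.74% and 4.72%. This share depends on depth: among CpGs with at least 10 reads, all members together had a median of 3.18% at 0 or 100%, against 21.3% without that minimum. Sall1 was closer to the others, with a ratio of 2.96 and 40% of its 25 CpGs at 30 to 70%. Its levels were 57.5% and 45.9% in FGR, against 44.0% and 57.1% in control.

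**Figure D3:**
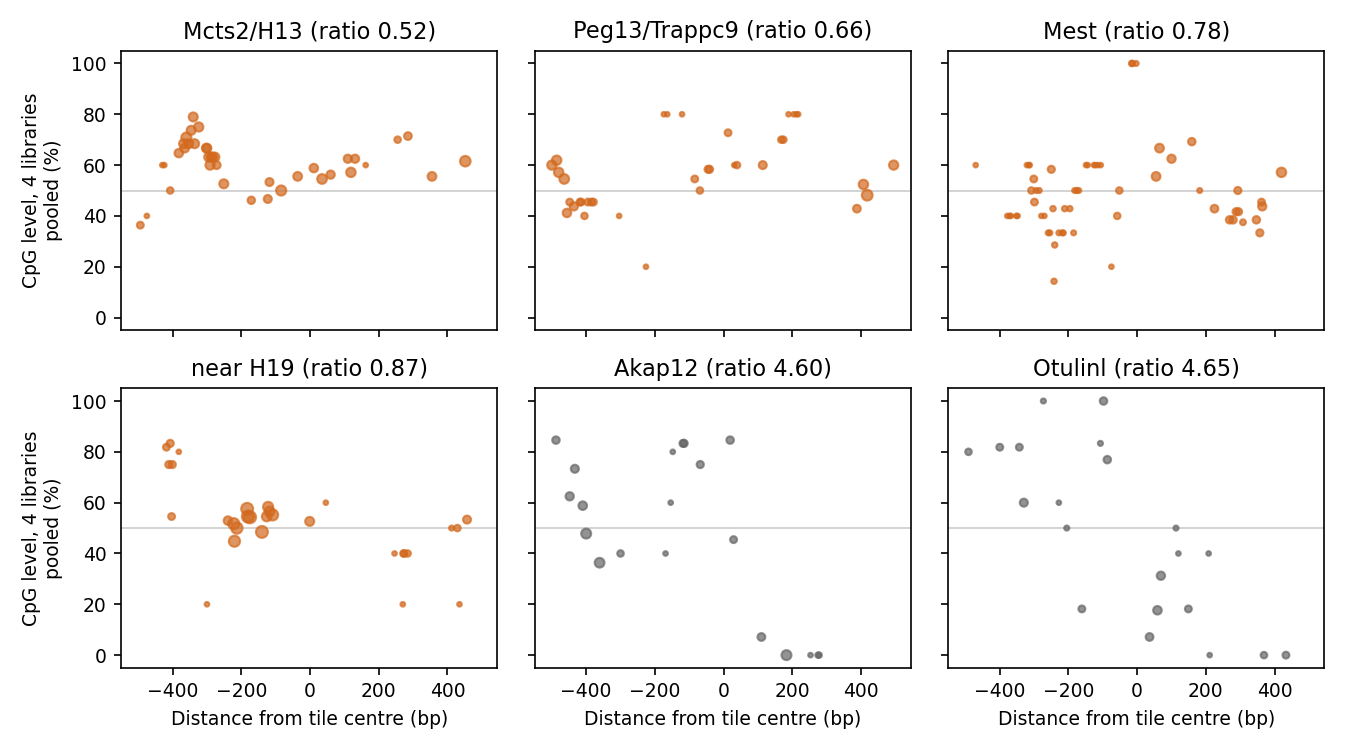
Level of each CpG (percent, 4 libraries pooled, larger points for more reads) against distance from the tile centre (bp), for the 4 members near imprinted genes and for Akap12 and Otulinl, 2 of the other members near the median ratio. A line marks 50%. CpGs of the first 4 lie mostly at intermediate levels. They range from 36.4 to 78.9% at Mcts2, 20 to 80% at Peg13, 14.3 to 100% at Mest and 20 to 83.3% near H19. Akap12 and Otulinl run from high to 0%.

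Within the members, neighbouring windows often differed. Of 389 tiles with at least 3 windows of 200 bases and 20 reads, 100 had a window at 20% or less and another at 80% or more, and 30 had all windows within 35 to 65%. At Mcts2 the lowest and highest windows were 54.6% and 66.7%, at Peg13 50% and 70.9%, at Mest 44.4% and 64.2%, and near H19 37.5% and 74.6%. Over the other members the medians of the lowest and highest window were 24.4% and 79.0%. Of the 370 members with both neighbouring tiles measured, 146 had both over 65% (39.5%), 97 had 1 within 35 to 65% and 1 over 65%, 80 had 1 under 35% and 1 over 65%, 22 had both within 35 to 65%, 21 had 1 within that band and 1 under 35%, and 4 had both under 35%. All 4 imprinted members had 1 neighbour within 35 to 65% and 1 over 65%, as did 93 of the 366 others. The tile left of Mcts2 had 58.6%, that left of Peg13 59.8%, that right of Mest 47.3% and that right of H19 50.2%. That left of Mest had 65.5%, just over the cut, and the next tiles further left had 50.9%, 56.0% and 63.2%.

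**Figure D4:**
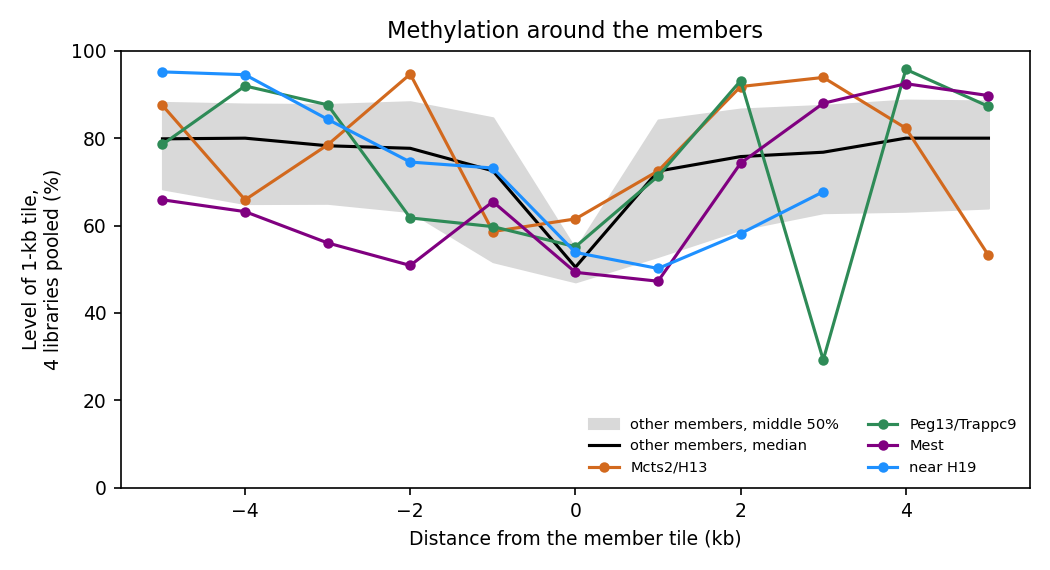
Level of 1-kb tiles (percent, 4 libraries pooled) by distance from the member (kb), for the 4 members near imprinted genes and as median and middle 50% of the other members. The others' median is 50.5% at the member and 72.5% in the tiles on either side.

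More tiles near imprinted genes had an intermediate level with the libraries pooled, or met the rule in part. Of 104 CpG-rich covered tiles near imprinted genes, 35 had a pooled level of 35 to 65%, against 2912 of 32454 in all, and 4 were members. Another 19 of the 104 were within the band in 3 of the 4 libraries, against 1105 in all. Of the 31 pooled at that level that were no members, 10 had a ratio under 1, against 4 of 2489 with no imprinted gene near. The 10 lay at Kcnq1ot1, Gnas (2 tiles), Slc38a4, Rian, Plagl1, Peg3, Zdbf2, Peg10 and Zrsr1. They were within the band in 1 library (Rian) to 3 libraries. The Kcnq1ot1 tile (ratio 0.556) had 65.8% and 60% in FGR, against 62.5% and 59.2% in control, so that 1 library lay just over the bound. One of the 4 others lay 29508 bp from Rasgrf1, an imprinted gene with a paternal mark, outside the 5 kb used here.

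The other members were spread over the genome. Of the 392, 66.6% overlapped a gene and 7.40% held a gene start, beside 70.7% and 9.12% of the CpG-rich covered tiles. Chromosome 18 had 29 members, 2.47% of its CpG-rich covered tiles. Of these, 21 lay in the clustered protocadherins, cell adhesion genes of which single neurons choose a few, with 9 in the alpha, 4 in the beta and 8 in the gamma cluster. They were 21.9% of the 96 CpG-rich covered tiles there, and their ratios ran from 1.85 to 6.38. Among the members with most CpGs outside imprinted genes were Zfp978 (94 CpGs), a tile nearest Gm26763 (65), Pcdhga1 (61), Zfp579 (56), Trpm1 (53), Apc2 (52) and Gm19951 (50). The Zfp978 tile, in a zinc finger gene, had 37.8% and 50.8% in FGR, against 51.9% and 54.7% in control, and a ratio of 13.3. Reads per CpG ran from 7.30 in the tile nearest Gm29982, with Lingo1 and Fut2 among the next, to 4132.5 nearest Gm41101, with Camk1d and 2 adjacent tiles at LOC115490388 before it. The Gm41101 tile had levels of 63.3% and 63.9% in FGR, against 63.3% and 63.4% in control, but 15% of its CpGs at 30 to 70%.

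A level in a library that the rule had not read was given by choosing tiles from the other 3 libraries. Of the tiles chosen without FGR 1, 4 of 9 near imprinted genes and 57.8% of 671 others lay within 35 to 65% in FGR 1. Without FGR 2 these were 4 of 7 and 62.0% of 626. Without control 1 they were 4 of 11 and 57.1% of 679, and without control 2 they were 4 of 8 and 58.6% of 662. Of all CpG-rich covered tiles, 9.20 to 9.44% lay within the band in a library. The tiles that lay within the band were the 392 members themselves each time, so the 4 shares restate the rule and are not separate checks. CpG-rich covered tiles at large were not chosen by level, so nothing is read from the difference. No test was made of the small groups near imprinted genes.

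The rule bounds the differences between FGR and control, so they are given as values only. The difference, FGR minus control mean, had a median of -0.453 points over the members, with 207 lower and 185 higher in FGR. For a single member the SD between the libraries of a group had a median of 5.75 points. At CpGs listed in all 4 libraries, which 154 members had at least 3 of, the median was 0.0589 points with 75 lower and 79 higher. Such CpGs were 11.7% of the members' CpGs, and 58.5% were listed in at least 1 FGR and 1 control library. The highest differences were 16.2 points at Osbp2, 15.5 points at Col19a1 and nearest Dctn6, and 15.2 nearest Tafa2, and the lowest were -19.3 points at Gm32986, -19.2 nearest D530033B14Rik, -18.9 at Fryl and -18.6 nearest Gm40211. Fryl had 40.4% and 41.1% in FGR, against 59.4% and 60% in control. It was named for its deep fall, so that its groups did not overlap is no separate result. At shared CpGs the highest were 33.1 points at Gm5103, 29.1 at Erich3, 21.8 at Gm32893 and 21.1 near H19, and among the lowest were -25.9 at Irx6, -24.1 at Usp37 and -23.2 at Gm29931.

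A quasi-binomial fit was run over all 551706 autosomal tiles in which each library had 3 or more CpGs and 10 or more reads. It called 3 (0.000544%) at a Benjamini-Hochberg adjusted p under 0.05 and 10 points. Of the 391 members in that fit it called 0, with 12 at an unadjusted p under 0.05 (3.07%, against 5.01% of all tiles). By limma 0 members were called as well, and 0 had an unadjusted p that low. Since the rule bounds the members' differences, nothing is read from this. Of 1358 tiles within 5 kb of a member that were no members themselves, the fit called 0, with 96 at an unadjusted p under 0.05 (7.07%). By limma 0 were called, and 61 had an unadjusted p that low (4.49%, against 4.56% of all tiles), so the higher share near members was not seen with that tool. In simulated tiles of the same coverage the fit recovered 0 of 250 tiles changed by 60 points at every overdispersion tried, so its low counts do not show that tiles were alike in FGR and control.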

How the data were processed

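Whole-genome bisulfite libraries of 2 FGR and 2 control samples were used. Trim Galore 0.6.5, Bismark and methylKit 1.28.0, on mm10, are named in the submitters' processing notes, without their parameters. The deposited coverage is a count of reads per cytosine and strand, and the deposited methylation value is the percent of reads with C or T, per the file headers. The lowest deposited coverage is 5, so CpGs with fewer reads are missing and which are listed depends on depth. Summed coverage per library was 49563150 and 91762720 in FGR and 62202250 and 66971740 in control. Errors cover these libraries only.

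Strands were summed per CpG and CpGs per 1000-base tile counted from base 1, with no filter on high coverage. Gene positions are RefSeq's on GRCm38.p6, which mm10 corresponds to. The members and gene lists were chosen with earlier results of these data known. Members near imprinted genes, those with most CpGs, with the highest and lowest reads per CpG and with the largest differences are named, apart from a few that are not reported here. The planned printing of promoters wholly inside a member found none near imprinted genes, so windows partly inside were printed.

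Methylated reads per tile were fitted in R 4.3.3 by quasi-binomial regression on group alone. Overdispersion was moderated by squeezeVar of limma 3.58.1, trended on coverage, with a floor of 1, and F test p-values were adjusted by Benjamini-Hochberg. The overdispersion prior was estimated in 2 ways. With all tiles in it the fit called 3 tiles. After that count was seen, the prior was also estimated without tiles fitted exactly, and this called 585. Both were then tested on simulated data of 551706 tiles, 5 draws at each of 3 models of overdispersion, and the choice was made by false calls and not by the count. Without exact fits, 64.5% of calls were false where overdispersion varied by tile, 15.4% where it was high and 6.01% where it was low, with 168, 42 and 224 of 250 changes of 60 points recovered. With all tiles there were 0 false calls and 0 recovered, so that fit was kept and is uninformative about absence. It made 0 calls in the simulations, so it could not fail by false calls. By limma, in 1 draw per model, 37, 7 and 0 of 50 changes of 60 points were recovered where overdispersion was low, high and varying. Its false calls there were 2, 0 and 0.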

Additional observations from a re-analysis of the deposited data

How the results depend on the processing

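The number of members followed the bounds: it was 947 with a band of 30 to 70%, 125 with 40 to 60%, 52 with at least 30 CpGs, 10 with 20 CpGs listed in every library, 232 with 40 reads and 649 to 811 when the rule read 3 libraries. A grid shifted by 500 bases gave 415 and leaving out the 0.1% of CpGs with the highest coverage gave 388. Members near imprinted genes numbered 15 with the wider band and 1 with the narrower, 3 to 5 with other distances, 7 on the shifted grid and 0 with 20 CpGs listed in every library. The median share of CpGs at 0 or 100% fell to 3.18% with at least 10 reads per CpG. The median FGR minus control difference ran from -0.753 to 0.115 points over the alternatives run, and its sign was not stable. The imprinted members held 3 or 4 of the 4 lowest dispersion ratios under all alternatives run, which were chosen after seeing the data.

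The count of called tiles was 3, and 5 with 20 reads, 1 at shared CpGs, 1 without the highest coverage, 0 with limma, 0 to 0 with a library left out, and 585 with the prior that leaves out exactly fitted tiles, chosen after the first count was seen and failing the simulated test. With that prior 2 tiles within 5 kb of a member and 0 members were called. The labels give same-numbered libraries only a shared number, and whether they share anything else is not stated. With a replicate block 0 tiles were called, and that fit recovered 0 changed tiles in simulation. The differences between replicates of FGR and of control correlated at 0.00205 over 551706 tiles. Neither value shows whether same-numbered libraries were paired. The count of called tiles therefore rests on the handling of overdispersion. Depth limits the rest: 11.7% of member CpGs were listed in every library.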
